A study of Mus musculus with 15 samples.

Results

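The red-cell genes of the embryonic mouse ventricle were followed as a set of 9 genes chosen by name: the embryonic globins Hba-x, Hbb-y and Hbb-bh1, the adult globins Hba-a1, Hba-a2, Hbb-bt and Hbb-bs, the haem enzyme gene Alas2 and the red-cell membrane gene Slc4a1. They are 9 of the 78317 genes in the count tables, and all 9 passed the filter on low counts that left 20269 genes for testing. RNA had been sequenced from 15 dissected ventricles of C57BL/6 embryos at embryonic day 11.5. In one mouse line loxP sites flank the coding exons of Atf4 (CDS line), and in the other they flank its polyadenylation signal (PAS line), and each was crossed with Xmlc2-Cre mice, so that recombination is directed to cardiomyocytes. The libraries are 4 CM-specific ATF4 CDS KO, 4 ATF4 CDS Control, 4 CM-specific ATF4 PAS KO and 3 ATF4 PAS Control hearts, called CDS knockout, CDS control, PAS knockout and PAS control here, after their labels. Whether the controls carry Cre or floxed alleles is not given in the sources used here, nor is the litter of any embryo. By the design text the deletion is confined to cardiomyocytes, so the red cells measured here are not its target.

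The labels disagree about the material: the tissue field and the design text give ventricle and a stranded mRNA kit, while the extraction text gives cultured cortical neurons and depletion of ribosomal RNA. Cardiomyocyte markers summed to between 35500 and 42200 CPM in the 15 libraries (CPM are counts scaled to a common library size), whereas the neuronal and choroid plexus markers summed to between 32.8 and 255 CPM, so the defining messages of heart muscle were abundant in every library. Total counts ran from 22623499 to 46472141 per library and were higher in every CDS-line library than in any PAS-line library, so that depth and line cannot be told apart. The targeted gene Atf4 stood at 39.6 to 48.1 CPM in the CDS knockouts against 112 to 116 CPM in their controls, and at 259 to 304 CPM in the PAS knockouts against 92.2 to 100 CPM in theirs; the groups labelled knockout thus sit on opposite sides of their controls. PAS knockout 2 and PAS control 3 stand apart from the other 13 libraries in their globin make-up, and several results that rest on them are given with and without them, a removal chosen after seeing the data. The correlations of shares within the PAS line alone are given only with them. CDS knockouts 3 and 4 stand apart in a list of liver markers that is mostly Ttr (105 and 157 CPM against 1.13 to 36.1 in the other 13), while Alb, the defining liver gene, averaged 0.0168 CPM. They also stand apart in the choroid plexus and neuronal markers, which hold Ttr too, at 192 and 255 CPM against 32.8 to 78.5 CPM. Enpp2 of that list reached 64.2 CPM in its highest library. Each list also split by line. Without CDS knockouts 3 and 4, CDS-line liver sums were 12.3 to 36.1 CPM and PAS-line sums 1.13 to 2.13 CPM. The choroid plexus and neuronal sums were then 51.6 to 78.5 CPM in the CDS line and 32.8 to 36.9 CPM in the PAS line.

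Haemoglobin is a tetramer of a pair of α-type and a pair of β-type globin chains around haem. In the mouse the first red cells are large primitive erythroblasts made in the yolk sac, which enter the circulation with the heartbeat and finish maturing in the bloodstream. They use Hba-x, which encodes the ζ chain, together with Hbb-y (εy) and Hbb-bh1 (βh1), and also transcribe the adult α genes; Hbb-bh1 is the earlier of the embryonic β genes and gives way to Hbb-y as the primitive cells mature. Definitive red cells from the fetal liver carry the adult chains. Globin RNA in a dissected heart is read here as a measure of the blood held in its chambers and vessels. Haem is built from glycine by a chain of enzymes whose first step in red cells is ALAS2, the product of Alas2, and band 3, the product of Slc4a1, is the anion exchanger that carries bicarbonate across the red-cell membrane. In bulk tissue, fewer red cells and less globin RNA per red cell cannot be told apart.

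By the GENCODE M37 annotation named in the count tables (mouse build GRCm39), the α genes lie in a row on the plus strand of chromosome 11. Hba-x is the first of them (chr11:32226400-32228116), followed by Hba-a1 (chr11:32233511-32234465) and Hba-a2 (chr11:32246489-32247298). The β genes lie on the minus strand of chromosome 7 and run from Hbb-y (chr7:103500956-103502423) through Hbb-bh1 (chr7:103490844-103492371) and Hbb-bs (chr7:103475741-103477303) to Hbb-bt (chr7:103461731-103463203). Alas2 is on chromosome X (chrX:149330371-149353634, plus strand), and Slc4a1 is on the minus strand of chromosome 11 (chr11:102239650-102257029). Each value below counts reads over the exons of the gene.

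Promoter sequences from RefSeq (GRCm38.p6, an older build than that of the counts) matched 7 of the 9 genes by symbol; Hbb-bh1 and Slc4a1 had no entry. The 120 bases just before the start of 6 of them are printed because the embryonic and adult genes of each cluster are compared throughout; the Hba-a2 stretch is left out since it shares a run of 247 of 250 bases with that of Hba-a1. Capitals mark the letters CACCC (a box of the kind KLF1 binds), GATAA (the GATA1 kind), CCAAT (the CCAAT box) and ATATAA (part of a TATA box), or their reverse complements.
Hba-x promoter, chr11:32276480-32276599, plus strand: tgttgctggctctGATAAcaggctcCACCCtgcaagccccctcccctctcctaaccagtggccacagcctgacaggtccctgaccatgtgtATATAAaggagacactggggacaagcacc
Hba-a1 promoter, chr11:32283552-32283671, plus strand: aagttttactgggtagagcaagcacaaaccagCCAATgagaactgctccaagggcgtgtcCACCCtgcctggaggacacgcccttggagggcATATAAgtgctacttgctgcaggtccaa
Hbb-y promoter, chr7:103853208-103853327, minus strand: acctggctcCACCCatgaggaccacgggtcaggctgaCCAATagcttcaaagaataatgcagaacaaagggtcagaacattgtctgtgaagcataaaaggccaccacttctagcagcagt
Hbb-bt promoter, chr7:103813924-103814043, minus strand: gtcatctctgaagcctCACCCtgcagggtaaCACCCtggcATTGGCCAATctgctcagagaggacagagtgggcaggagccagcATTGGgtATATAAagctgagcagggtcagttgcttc
Hbb-bs promoter, chr7:103827929-103828048, minus strand: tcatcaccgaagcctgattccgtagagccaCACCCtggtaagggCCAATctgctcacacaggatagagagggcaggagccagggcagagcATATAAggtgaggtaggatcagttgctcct
Alas2 promoter, chrX:150547297-150547416, plus strand: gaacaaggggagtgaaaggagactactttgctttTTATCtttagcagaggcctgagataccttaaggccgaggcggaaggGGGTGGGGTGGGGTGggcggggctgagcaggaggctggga
Within 250 bases before the start, CACCC on either strand occurred in 7 of these 7 promoters and so did the letters GATAA, while the CCAAT box was in 5 of 7 and the TATA letters ATATAA in 5 of 7. Over 32851 mouse promoters of the same length the shares were 52.0% for CACCC, 22.6% for GATAA, 33.8% for CCAAT and 9.1% for ATATAA. A match is a description of the sequence only, and no search of other letters was made. Hba-x has no CCAAT in the window and Hbb-y no ATATAA, while the adult genes printed have both. In the other 3 pairs compared, the longest run of identical bases was 14 between Hbb-bt and Hbb-bs, 10 between Hba-x and Hba-a1, and 8 between Hbb-y and Hbb-bt; such a run does not measure how alike the stretches are along their length.

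The embryonic genes led the globin messages in these hearts. Per kilobase of exon, the mean over the 15 libraries was 1850 CPM for Hbb-y, 687 for Hba-x and 356 for Hbb-bh1, followed by 240 for Hba-a1, 78.2 for Hba-a2, 49.9 for Hbb-bt, 17.9 for Slc4a1, 14.2 for Hbb-bs and 9.34 for Alas2. Hbb-y was above Hba-x in 15 of 15 libraries, by 2.05 to 4.65 times, and Hba-x was above Hbb-bh1 in 15 of 15, by 1.47 to 2.55 times. Hbb-bh1 was above Hba-a1 in 12 of 15 libraries, and the exceptions were CDS control 2, PAS knockout 2 and PAS control 3. The order Hba-a1, Hba-a2, Hbb-bt, Slc4a1 held between each pair of neighbours in 15 of 15 libraries. The last neighbours in the order overlapped: Slc4a1 was above Hbb-bs in 11 libraries and Hbb-bs above Alas2 in 9. Levels of the adult genes are uncertain, because 74.5% of the 100-base windows of the Hba-a2 transcript occur without a mismatch in Hba-a1 and 62.6% of those of Hbb-bs in Hbb-bt, and reads that align to both copies are not counted by the counter's default. The embryonic globins share no such window with any other of the 7 globins (transcripts of GENCODE M21). An unnamed gene on the opposite strand overlaps the ends of Hbb-bs and Hbb-bh1, and the counting took no account of strand, so these counts are uncertain as well.

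The embryonic α gene Hba-x was measured at 422, 641, 1310 and 430 CPM in CDS knockouts 1 to 4 and at 831, 1020, 514 and 605 CPM in CDS controls 1 to 4. In the PAS line it was at 744, 388, 369 and 344 CPM in knockouts 1 to 4 and at 1030, 751 and 265 CPM in controls 1 to 3. The highest library was a CDS knockout and the lowest a PAS control, and knockouts overlapped controls in both lines. The group means were 700 ± 418 CPM against 742 ± 226 in the CDS line (SD, n = 4 each) and 461 ± 190 (n = 4) against 683 ± 388 (n = 3) in the PAS line. edgeR's quasi-likelihood test gave a log2 change of -0.08 ± 0.48 (SE; 95% interval -1.14 to 0.97; Benjamini-Hochberg adjusted p = 1) for the CDS knockout. For the PAS knockout it gave -0.57 ± 0.52 (interval -1.70 to 0.57; adjusted p = 0.992).

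Hbb-y, the main β gene of the maturing primitive red cell, was at 896, 1210, 2140 and 836 CPM in CDS knockouts 1 to 4 and at 1450, 2160, 931 and 1040 CPM in CDS controls 1 to 4. In the PAS line its levels were 1030, 1220, 570 and 572 CPM in knockouts 1 to 4 and 1710, 1040 and 780 CPM in controls 1 to 3. The CDS groups each held 1 library above 2100 CPM, and the groups of both lines overlapped. The CDS knockout changed its log2 level by -0.14 ± 0.41 (interval -1.04 to 0.77; edgeR adjusted p = 1) and the PAS knockout by -0.47 ± 0.44 (interval -1.44 to 0.50; adjusted p = 0.992).

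Hbb-bh1, the earlier β gene, was at 133, 204, 467 and 150 CPM in CDS knockouts 1 to 4 and at 269, 277, 165 and 200 CPM in CDS controls 1 to 4. It was at 275, 104, 137 and 117 CPM in PAS knockouts 1 to 4 and at 373, 335 and 67.8 CPM in PAS controls 1 to 3. The spread inside the PAS controls, from 67.8 to 373 CPM, covered the whole of the PAS knockout group. The log2 change was 0.07 ± 0.55 in the CDS line (interval -1.14 to 1.27; edgeR adjusted p = 1) and -0.71 ± 0.59 in the PAS line (interval -2.02 to 0.59; adjusted p = 0.988).

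**Figure D1:**
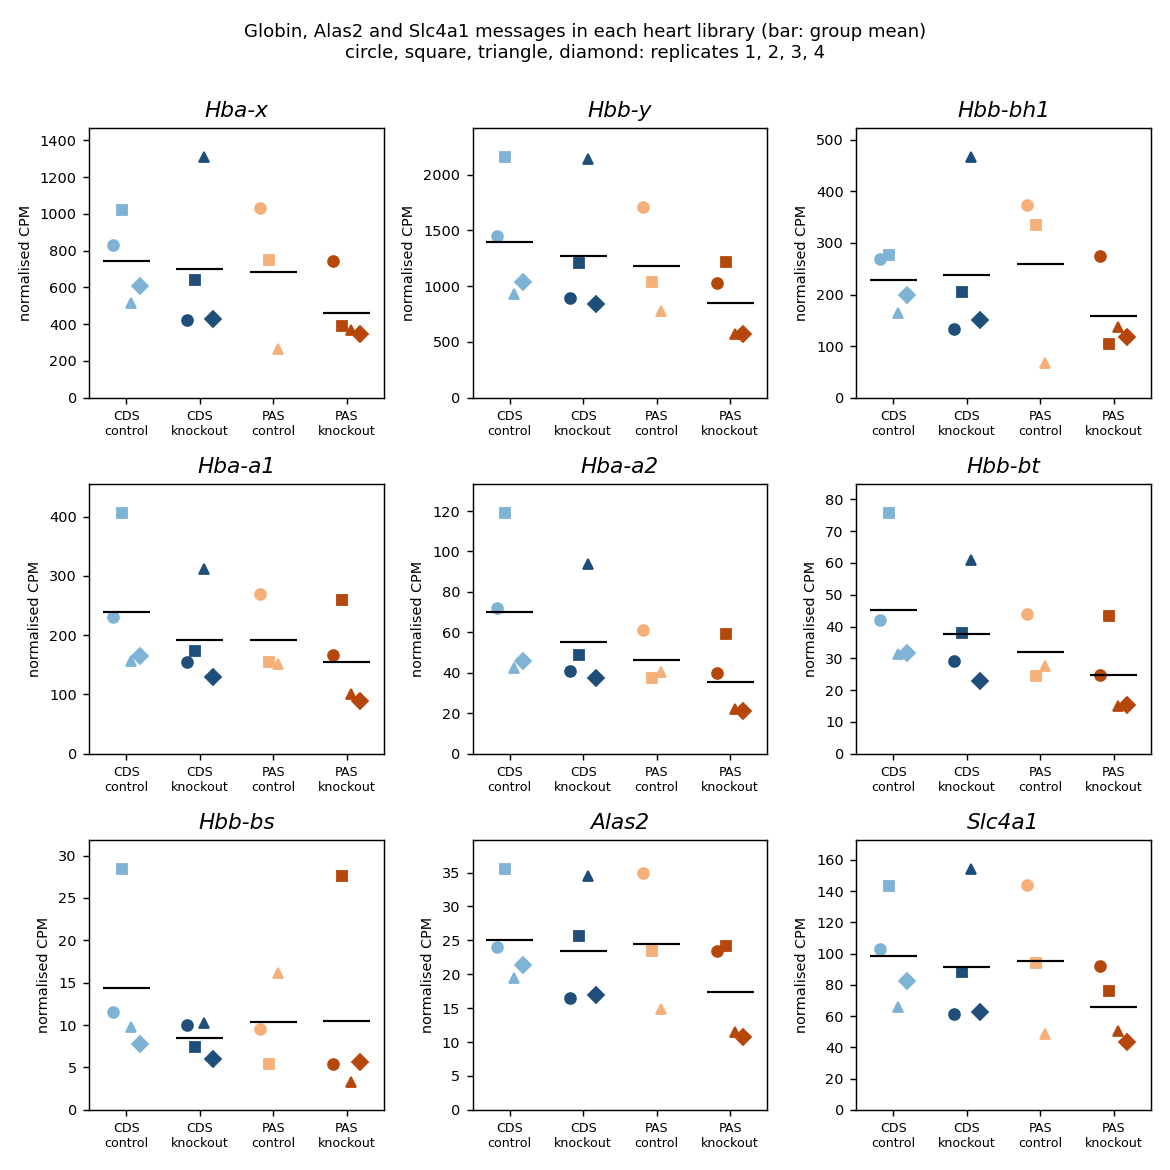
Normalised CPM of each of the 9 genes (vertical axis, linear from 0, a scale of its own for each gene) in the 4 groups; each point is 1 library, the marker shape gives its replicate number and the bar is the group mean. Knockout and control points overlap in every panel, and CDS control 2 and CDS knockout 3 lie high in most of them, at 2160 and 2140 CPM for Hbb-y.

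Hba-a1, the more abundant adult α gene in these counts, was at 154, 174, 312 and 130 CPM in CDS knockouts 1 to 4 and at 231, 406, 157 and 165 CPM in CDS controls 1 to 4. It was at 166, 260, 100 and 89.5 CPM in PAS knockouts 1 to 4 and at 269, 155 and 152 CPM in PAS controls 1 to 3. PAS knockout 2, which was second in its group for Hba-x, was the highest of its group here. The log2 change was -0.32 ± 0.43 in the CDS line (interval -1.27 to 0.64; edgeR adjusted p = 1) and -0.32 ± 0.47 in the PAS line (interval -1.36 to 0.72; adjusted p = 0.996). Its near copy Hba-a2 ranged from 21.3 to 119 CPM over the 15 libraries, with changes of -0.34 ± 0.44 and -0.38 ± 0.50.

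The adult β genes were the least abundant of the 7 globins in the set. Hbb-bt ranged from 15.1 to 75.7 CPM, with log2 changes of -0.25 ± 0.42 in the CDS knockout and -0.39 ± 0.49 in the PAS knockout. Hbb-bs, the other adult β gene of this strain, was between 5.97 and 10.3 CPM in the 4 CDS knockouts and at 11.5, 28.4, 9.74 and 7.76 CPM in CDS controls 1 to 4. In the PAS line it was at 5.36, 27.6, 3.30 and 5.63 CPM in knockouts 1 to 4 and at 9.58, 5.37 and 16.1 CPM in controls 1 to 3. Single libraries carried its high values, CDS control 2 and PAS knockout 2 among them. The log2 change was -0.75 ± 0.65 in the CDS line (interval -2.17 to 0.67; edgeR adjusted p = 1) and 0.03 ± 0.73 in the PAS line (interval -1.57 to 1.64; adjusted p = 1). The PAS estimate was -1.11 without PAS knockout 2 and -0.65 without both PAS knockout 2 and PAS control 3, the latter removal chosen after seeing the data.

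Alas2 was at 16.5, 25.7, 34.5 and 16.9 CPM in CDS knockouts 1 to 4 and at 24.0, 35.5, 19.4 and 21.3 CPM in CDS controls 1 to 4. It was at 23.5, 24.1, 11.5 and 10.7 CPM in PAS knockouts 1 to 4 and at 35.0, 23.4 and 14.8 CPM in PAS controls 1 to 3. Its deviations from the group mean followed those of Hbb-y with r = 0.96 over the 15 libraries, as a description. The change was -0.10 ± 0.36 (interval -0.89 to 0.70; edgeR adjusted p = 1) in the CDS line and -0.49 ± 0.41 (interval -1.40 to 0.41; adjusted p = 0.988) in the PAS line. Slc4a1 ranged from 43.5 CPM in PAS knockout 4 to 154 CPM in CDS knockout 3, with changes of -0.10 ± 0.41 and -0.55 ± 0.45 (edgeR adjusted p = 1 and 0.987).

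None of the 9 genes passed the test, called at an adjusted p under 0.05, in either knockout. edgeR called 0 of 9 in the CDS line, where it called 0.0543% of all genes tested, and 0 of 9 in the PAS line, where it called 0.00987%. At an unadjusted p under 0.05 the counts were also 0 of 9 in both lines, against 2.62% and 5.24% of all genes, and DESeq2 and limma-voom called 0 of 9 as well. In 9 of 9 genes the knockouts overlapped the controls in both lines, whereas the groups did not overlap in 2.8% of all genes for the CDS deletion and 4.59% for the PAS deletion. The median log2 change of the 9 genes was -0.14 for the CDS deletion and -0.47 for the PAS deletion, with 8 of 9 below 0 in each, beside a median of 0 over all genes tested. The CDS values depended on single hearts. Without CDS knockout 3 they ran from -0.86 (Hbb-bs) to -0.34 (Alas2), with 0 of 9 called by edgeR. Leaving out other single hearts gave values up to 0.27 (Hbb-bh1). The 9 genes varied together between hearts and are not 9 separate observations. The intervals are wide: for Hbb-y the data allow a knockout level of between 0.487 and 1.7 times that of the control in the CDS line and between 0.368 and 1.41 times in the PAS line. The difference between the PAS and the CDS effect was tested for each gene and called for 0 of 9 (0.00493% of all genes; 0 of 9 at an unadjusted p under 0.05 against 4.16%; DESeq2 and limma-voom 0). It ranged from -0.78 ± 0.81 for Hbb-bh1 to 0.78 ± 0.98 for Hbb-bs. Between the PAS controls and the CDS controls 0 of 9 were called too (0.143% of all genes; 0 of 9 at an unadjusted p under 0.05 against 9.6%; DESeq2 and limma-voom 0), and the groups overlapped for 9 of 9 (9.46% of all genes did not). The controls enter both the difference and their own comparison, so these results share libraries.

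**Figure D2:**
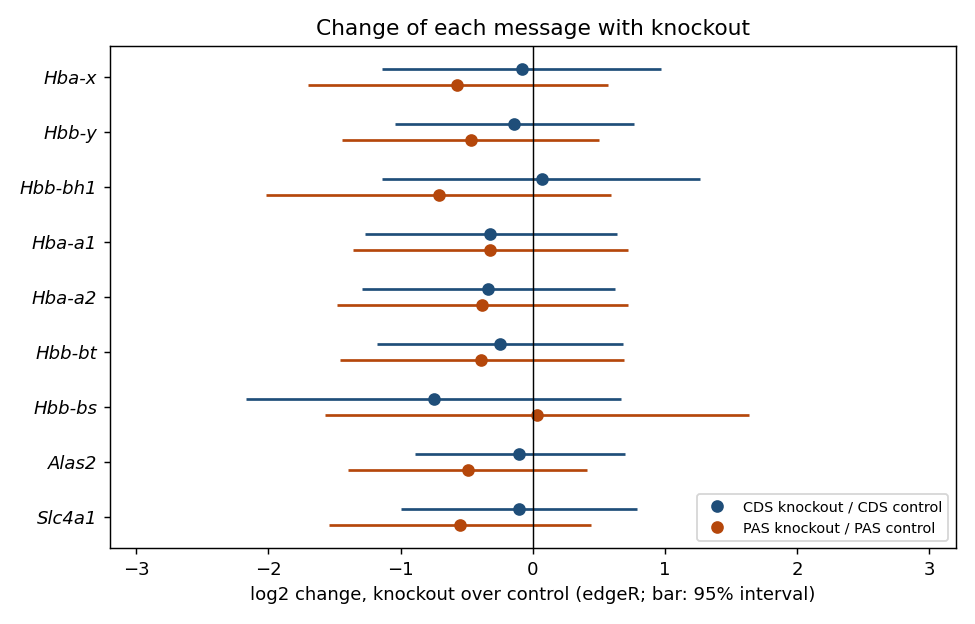
The log2 change (horizontal axis, knockout over control) of each gene in the CDS line (blue) and the PAS line (orange) from edgeR; points are estimates and bars 95% intervals. All 18 intervals include 0, and the widest belong to Hbb-bs and Hbb-bh1.

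The blood content of the hearts, taken as the 7 globins' share of all counts, differed 3.72-fold between libraries, with most of that range inside the groups. The share was 0.169, 0.234, 0.432 and 0.161% in CDS knockouts 1 to 4 and 0.287, 0.405, 0.186 and 0.209% in CDS controls 1 to 4. It was 0.229, 0.211, 0.121 and 0.116% in PAS knockouts 1 to 4 and 0.352, 0.232 and 0.136% in PAS controls 1 to 3. Counting error is small beside this: the exact binomial 95% interval of CDS knockout 1 ran from 0.168 to 0.17%, and it covers counting error only. Within a group the highest heart exceeded the lowest by 2.68 times in the CDS knockouts, 2.18 times in the CDS controls, 1.97 times in the PAS knockouts and 2.59 times in the PAS controls. The group means were 0.249 ± 0.126% against 0.272 ± 0.0988% in the CDS line (SD, n = 4 each) and 0.169 ± 0.0591% (n = 4) against 0.240 ± 0.108% (n = 3) in the PAS line. The log2 ratio of the mean shares, knockout over control, was -0.13 for the CDS deletion and -0.50 for the PAS deletion. Each was smaller than the SD of 0.59 of the log2 shares between hearts of a group. That SD describes single hearts and is not the error of a difference of means, so the comparison is no test. In the CDS line the sign depended on single hearts (from -0.53 without CDS knockout 3 to 0.13 without CDS control 2), and in the PAS line the difference ran from -0.78 without PAS control 3 to -0.12 without PAS control 1. Leaving out PAS knockout 2 and PAS control 3 together gave -0.91, with log2 changes of the 9 genes between -1.01 (Hbb-bh1) and -0.65 (Hbb-bs), of which edgeR called 0 of 9.

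Few genes varied as much between hearts of the same group. Among the 14810 genes with a mean of at least 1 CPM, the within-group SD of log2 CPM had a median of 0.0996. It was 0.903 for Hbb-bs, which ranked 21st of all, 0.819 for Hbb-bh1, which ranked 33rd, and 0.69 for Hba-x, which ranked 70th. The steadiest of the 9 were Hbb-y at 0.578 and Alas2 at 0.54, ranked 137th and 166th. Without PAS knockout 2 and PAS control 3 the SD was 0.59 for Hbb-bs, 0.603 for Hbb-bh1 and 0.597 for Hba-x, ranked 87th, 81st and 83rd, and the median was 0.0905. Deviations from the group mean went together across the 15 libraries, as a description with no test: Pearson's r was 0.99 between Hba-a1 and Hba-a2, 0.97 between Hba-x and Hbb-bh1, and 0.96 between Alas2 and Slc4a1. It was -0.23 between Hbb-bh1 and Hbb-bs and 0.48 between Hbb-bh1 and Hba-a1, so the earliest β gene followed the adult genes less closely than it followed Hba-x. These weaker relations rested in part on PAS knockout 2 and PAS control 3. Without them r was 0.38 between Hbb-bh1 and Hbb-bs, 0.83 between Hbb-bh1 and Hba-a1, and 0.98 between Hbb-bh1 and Hba-x. The order of these values was the same with and without that pair. The ratio of Hbb-y to Slc4a1 per kilobase stayed between 85.7 and 124 and that of Alas2 to Slc4a1 between 0.456 and 0.646, a range of 1.45 and 1.42 times while the globin share ranged 3.72-fold. Other ratios moved more: Hbb-bh1 over Hba-a1 ran from 0.528 to 2.87 and Slc4a1 over Hbb-bs from 0.431 to 2.74.

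Markers of other cell types were measured in the same libraries. The 11 matched erythroid markers outside the set, which include the red-cell surface gene Ermap, summed to 62, 93, 142 and 64.9 CPM in CDS knockouts 1 to 4 and 93.1, 112, 68.6 and 80.1 CPM in CDS controls 1 to 4. In the PAS line they summed to 86.3, 66.3, 55.7 and 50.7 CPM in knockouts 1 to 4 and 130, 85.4 and 47.2 CPM in controls 1 to 3. The highest of these sums, in CDS knockout 3, belonged to the heart with the highest globin share, and the lowest to PAS control 3, a range of 3.01-fold; Icam4 of this list is at 0 in every library. The other blood and heart cell types ranged less, though the macrophage sums came close. The 11 macrophage genes summed to between 29.7 and 76.5 CPM (2.58-fold). The 9 megakaryocyte and platelet genes summed to between 20.2 and 36.8 CPM (1.82-fold), and 10 endothelial genes to between 1730 and 2020 CPM (1.17-fold). The 11 cardiomyocyte genes ranged 1.19-fold. The platelet sums were 31.3 ± 4.98 CPM in the PAS knockouts (n = 4) and 25 ± 4.29 CPM in the PAS controls (n = 3), where 7 of the 8 tested platelet genes had a log2 change above 0 (median 0.40) and 0 were called. The part of handling or of any of these cell types in the globin differences was not tested.

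**Figure D3:**
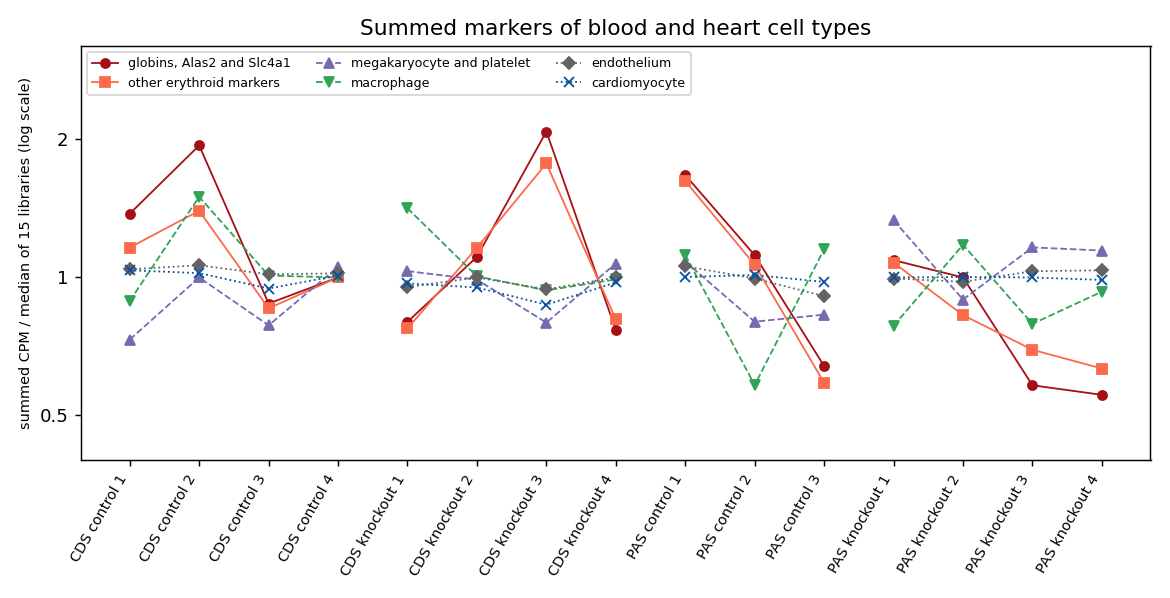
Summed CPM of each marker list divided by its median over the 15 libraries (vertical axis, log scale) for every library (horizontal axis), with lines joining libraries of one group for legibility only. The 9 genes and the other erythroid markers rise and fall together over ranges of 3.75 and 3.01 times, while endothelial and cardiomyocyte sums stay within 1.17 and 1.19 times. The macrophage sums range 2.58 times and the megakaryocyte and platelet sums 1.82 times.

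The make-up of the globin pool was a second way in which hearts differed. Per kilobase of exon the 3 embryonic genes made up 83.2 to 91.2% of the 7 globins (median 88.9%), with group means of 88.8 ± 1.14% in CDS knockouts, 87.8 ± 1.42% in CDS controls, 88.1 ± 3.30% in PAS knockouts and 88.4 ± 3.80% in PAS controls. The knockout minus control difference was 1.01 percentage points for the CDS deletion and -0.27 for the PAS deletion. Each was below the SD between hearts of a group (1.29 and 3.51), which is not the error of a difference of means. On leaving out single hearts the CDS value ran from 0.33 (without CDS control 2) to 1.54. The PAS value changed sign on leaving out single hearts, from -2.44 without PAS control 3 to 1.36 without PAS knockout 2. In these counts the α and β loci were at different points: Hba-x made up 50.3 to 76.5% of α globin, whereas Hbb-y and Hbb-bh1 made up 95.5 to 98.1% of β globin. Put as a ratio, embryonic over adult was 1.01 to 3.24 at the α locus (median 2.37) and 21.5 to 52.3 at the β locus (median 36.4). Fragments matching both adult copies may be missing from the counts. Their loss would raise these embryonic shares and ratios, by an amount that may differ between the loci. All α genes together held a share of 27.3 to 33.2% of globin counts per kilobase, which is less than an equal share with the β genes and is subject to the uncertain counts of the adult α copies.

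PAS knockout 2 and PAS control 3 had the lowest embryonic shares of all. Hba-x was 50.3% of α globin in PAS knockout 2 and 53.3% in PAS control 3, against 61.5 to 76.5% in the other 13 libraries. Hbb-bh1 was 8.07 and 8.24% of embryonic β globin in these libraries, against 11.7 to 25.0% in the others. Hbb-bs was 36.8 and 34.7% of adult β globin, against 13.4 to 25.6%. These gaps are larger than counting error, for which the widest exact binomial half-interval was 0.971 percentage points for the α share, 0.614 for the Hbb-bh1 share and 3.51 for the Hbb-bs share. One of the libraries is a knockout and the other a control, and they were low on both chromosomes. The globin share of counts of these hearts, 0.211 and 0.136%, lies inside the range of the rest.

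The shares were also compared across all hearts. Across the 15 libraries the Hbb-bh1 share of embryonic β globin and the Hba-x share of α globin had Pearson's r = 0.93 and Spearman's rho = 0.94, a description with no test over shares that come from the same libraries. Without PAS knockout 2 and PAS control 2, the libraries farthest from the median Hbb-bh1 share, r was 0.95 over 13 libraries, and without PAS knockout 2 and PAS control 3 it was 0.92 over 13 (rho = 0.91). Among the 8 CDS-line libraries it was 0.94, and among the 7 of the PAS line 0.97. The Hbb-bh1 and Hbb-bs shares went opposite ways, with r = -0.81 over 15 libraries, -0.80 without PAS knockout 2 and PAS control 2, -0.81 among the CDS-line and -0.94 among the PAS-line hearts. Without PAS knockout 2 and PAS control 3 this r was -0.58 over 13 libraries. CDS control 2, the CDS-line heart with the lowest Hbb-bh1 share (11.7%), also had the lowest Hba-x share (61.5%) and the highest Hbb-bs share (25.6%) of its line. The balance of the adult α copies went mostly with the line instead. Hba-a2 was 24.5 to 27.5% of adult α globin in the 8 CDS-line libraries and 21.0 to 24.6% in the 7 PAS-line libraries. The widest counting half-interval was 1.6 percentage points. CDS knockout 1 (24.5%) and PAS control 3 (24.6%) overlapped. The counts of these near copies are uncertain, and line and depth cannot be told apart.

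**Figure D4:**
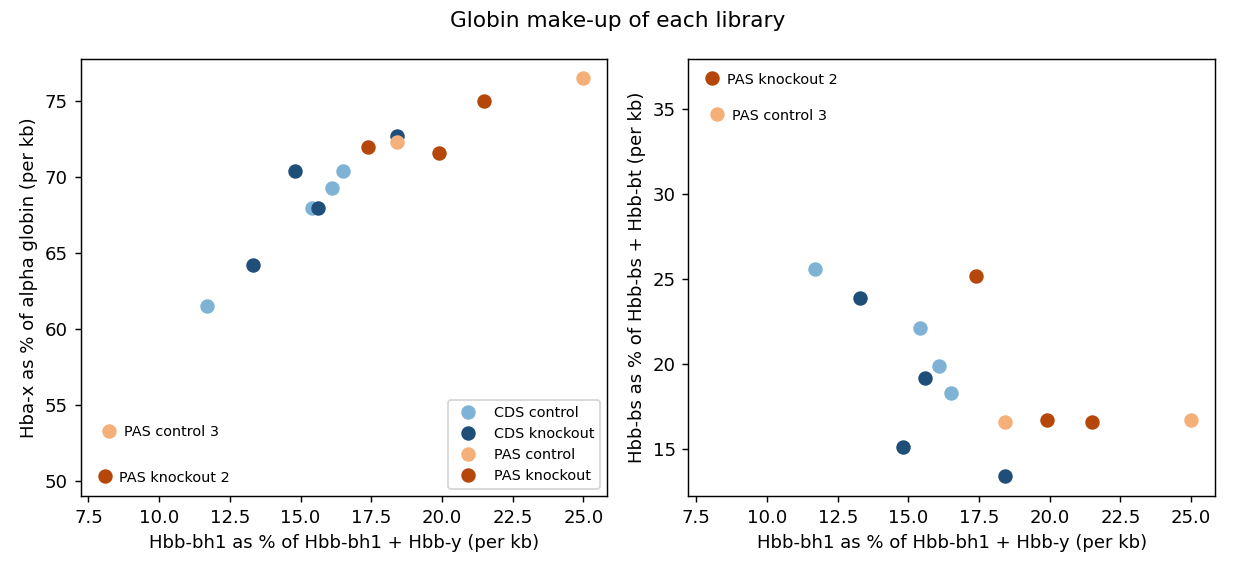
Globin make-up of the 15 libraries, each a point coloured by group: the Hbb-bh1 share of embryonic β globin (horizontal axes, % per kb) against the Hba-x share of α globin (left) and the Hbb-bs share of adult β globin (right). PAS knockout 2 and PAS control 3 lie at Hbb-bh1 shares of 8.07 and 8.24%, apart from the other libraries in both panels.

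The wider red-cell pathway was read from lists of known genes. edgeR called 0 genes of any list in any of the 4 comparisons; the smallest adjusted p in a list was 1 for the CDS knockout, 0.934 for the PAS knockout, 0.995 for the difference and 0.107 between controls. Of the 13 haem synthesis genes, 6 had a log2 change below 0 in the CDS line (median 0) and 11 in the PAS line (median -0.08). The most abundant were Fech, the last enzyme of the pathway, at 89.1 CPM, and Alas1, the housekeeping form of the first enzyme, at 70.1 CPM. Of the 19 tested red-cell membrane genes, led by Tmod1 (241 CPM) and Epb41 (172 CPM), which heart muscle and other cells use too, 8 were below 0 in the CDS line (median 0.02) and 16 in the PAS line (median -0.22). The 9 tested erythroid markers had medians of 0.06 for the CDS deletion and -0.48 for the PAS deletion, with 3 and 9 below 0.

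Of the 14 erythroid transcription factors, Ldb1 (176 CPM) and Zfpm1 (75.9 CPM) were the most abundant and are used by other cells. The red-cell factor Klf1, an activator of adult β globin, ranged from 1.92 to 7.35 CPM and Gata1 from 0.657 to 3.17 CPM. The list's medians were 0 for the CDS deletion and -0.08 for the PAS deletion. Bcl11a, a repressor of embryonic globins, ranged 1.27-fold, from 20.2 to 25.6 CPM. Its mean of 22.5 CPM was above that of Klf1 (3.89 CPM) and Gata1 (1.95 CPM), and which cells its RNA came from was not tested. Of the erythropoietin and Kit signalling genes Epo itself had no counts, and Stat5b (81.8 CPM) and Bcl2l1 (43.7 CPM) led the 9 tested, with medians of 0 and -0.01. The iron genes, led by the ferritins Fth1 (235 CPM) and Ftl1 (220 CPM), had medians of 0.02 and -0.01, and the 7 genes of haem turnover, led by Bach1 (66.6 CPM) and Hmox2 (47.6 CPM), of -0.02 and -0.01. The 13 tested red-cell enzymes and chaperones, with Prdx2 (260 CPM) and Bnip3l (149 CPM) highest, had medians of -0.01 and -0.07. Beside them the median over all genes tested was 0 in each comparison. Of the other globin genes only Hbq1b passed the filter, at 0.648 CPM.

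The 6 genes most like the 9 in their deviations from the group mean, over 15 libraries and among genes with at least 1 CPM, were Ermap (r = 0.981), Trim10 (0.979), Car2 (0.965), Fech (0.958), Lmx1a (0.956) and Epb42 (0.953). Without PAS knockout 2 and PAS control 3 the r of these genes ran from 0.945 (Epb42) to 0.978 (Ermap). Ermap is a red-cell surface protein, Car2 encodes carbonic anhydrase 2, and Epb42 encodes protein 4.2 of the red-cell skeleton. Ermap ranged from 6.99 to 25.3 CPM (3.62-fold) and Epb42 from 3.18 to 14.6 CPM (4.59-fold). Fech ranged only from 80.7 to 103 CPM (1.28-fold).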

How the data were processed

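RNA was measured in 15 ventricle libraries. The deposited values are whole-number counts per gene made by the authors with featureCounts 2.1.1 and the GENCODE M37 annotation, per the file headers, which give no option for strand, multi-mapping or overlapping reads; the submitters' processing notes name HISAT2 2.2.1 and STAR 2.7.11b without saying which made these alignments. Fragments matching both copies of the adult globins, or overlapping an unnamed gene at the ends of Hbb-bs and Hbb-bh1, may therefore be missing. The 9 genes, the gene lists and the tests were chosen with earlier results of these data known.

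Symbols matched 51487 of 78317 gene IDs, which held 98.85% of counts. Counts were tested in R 4.3.3 with edgeR 4.0.16 (filterByExpr with a minimum count of 10, TMM factors of 0.986 to 1.01, 1 mean per group, robust quasi-likelihood F test, 11 residual degrees of freedom, common BCV 7.44%) and adjusted by Benjamini-Hochberg over 20269 genes. DESeq2 1.42.0 and limma 3.58.1 were alternatives. CPM are TMM-scaled, and levels between genes are compared per kilobase of exon. The script was tested on simulated data. The labels do not say that replicates came from separate litters, so p-values measure the spread between these samples. Replicate pairs of one group differed beyond sampling noise (chi-square over degrees of freedom of 50.8 to 64 in the 3 pairs with CDS knockout 3, which stands apart, and 3.45 to 13.9 in the other 18), and none was merged. Genes named were the 9, those called in each list or else its 2 most abundant, and the 6 most like the 9; others were chosen after their values were seen, and 1 gene that the rule names is not reported here. The batch label is 1 for every library.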

Additional observations from a re-analysis of the deposited data

Results flagged for a closer look

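Within groups of 4 hearts, 51 sets of values were examined for a library whose gap to its nearest neighbour takes up more of the group's range than Dixon's 95% limit of 0.829. Chance alone marks about 1 set in 20, and 5 were found. Among the PAS knockouts, Hba-x was at 744 CPM in PAS knockout 1 against 344 to 388 CPM in the others, and Hbb-bs was at 27.6 CPM in PAS knockout 2 against 3.3 to 5.63 CPM. PAS knockout 2 also stood apart with an embryonic share of globin of 83.2% (others 89.3 to 90.4%) and an embryonic share of α globin of 50.3% (others 71.6 to 75.0%). Among the CDS knockouts, α genes made up 31.2% of globin in CDS knockout 3 and 29.3 to 29.6% in the others. The PAS controls, with 3 hearts, were not examined in this way, so PAS control 3 could not be marked.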

How the results depend on the processing

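No gene of the 9 was called in any of the 4 comparisons under any alternative run: DESeq2 with its own size factors or those factors in edgeR, limma-voom, no filter on low counts, library sizes without the 9 genes, the compared groups alone, each library left out, or the pairs named here left out. Of 279 alternative log2 changes, 254 kept their sign and 25 did not; the lowest adjusted p was 0.628. With limma-voom, Hbb-bh1 in the CDS line was at -0.09 and Hbb-bs in the PAS line at -0.33. Without CDS knockouts 3 and 4, Hbb-bh1 in the CDS line was at -0.44, and without PAS knockout 2 and PAS control 3, an alternative chosen after seeing the data, Hbb-bs in the PAS line was at -0.65. Leaving out 1 library at a time gave CDS changes of -0.65 to 0.06 for Hba-a1, -0.71 to 0.05 for Hba-a2, -0.57 to 0.11 for Hba-x, -0.51 to 0.16 for Hbb-y, -0.49 to 0.27 for Hbb-bh1, -0.58 to 0.11 for Hbb-bt, -0.34 to 0.12 for Alas2 and -0.47 to 0.13 for Slc4a1, and PAS changes of -0.7 to 0.01 for Hba-a1 and -1.11 to 0.49 for Hbb-bs. The others kept their sign but moved several-fold: CDS Hbb-bs -0.97 to -0.18, and PAS Hba-a2 -0.75 to -0.13, Hba-x -0.95 to -0.14, Hbb-y -0.7 to -0.1, Hbb-bh1 -1.16 to -0.35, Hbb-bt -0.82 to -0.08, Alas2 -0.75 to -0.13 and Slc4a1 -0.86 to -0.12. The cause of the sign changes was not tested. Deviations of same-numbered libraries had r from -0.05 to 0.17 in the CDS line and -0.43 to 0.02 in the PAS line. The highest r of a knockout with another control of its line was 0.12 to 0.15 and 0.24 to 0.42. In CDS replicate 1 the same-numbered r was the higher (0.17 against 0.15). Litters are not given, so whether the numbers pair hearts cannot be told from these values. With a replicate block 0 of 9 genes were called in each comparison, and Hbb-bs in the PAS line was at -0.1. Depth does not limit the 9 genes (the lowest count was 78, for Hbb-bs).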

Other observations

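Some genes outside the red-cell lists followed the globin make-up of the hearts. They were picked after their values were seen, by the highest and lowest Pearson's r of deviations from the group mean with those of the log ratio of Hbb-bh1 to Hbb-y over the 15 libraries, and so carry no test. Without PAS knockout 2 and PAS control 3 the r of the 6 most alike ran from 0.887 to 0.95 and that of the 6 most opposite from -0.967 to -0.886, over 13 libraries. The ones most alike were Arid3a (r = 0.987), Trim71 (0.986), Arid3b (0.984), Ecm1 (0.98), Col18a1 (0.976) and Gata5 (0.97). Trim71 encodes a stem-cell RNA-binding protein that is a target of the let-7 microRNAs; it was at 6.86 CPM in PAS knockout 2 and 7.58 CPM in PAS control 3, against 13.9 to 22.6 CPM in the other PAS hearts and 11.5 to 16.8 CPM in the CDS hearts. Arid3a was at 39 and 43.2 CPM in the same libraries, against 48.4 to 64.3 CPM in the other 13.

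The genes most opposite were Thbs2 (r = -0.984), Osmr (-0.983), Hmcn1 (-0.978), Casq2 (-0.977), Sept6 (-0.976) and Cpe (-0.973). Casq2, the calcium-binding protein of the cardiac sarcoplasmic reticulum and so a gene of the heart muscle itself, was at 196 CPM in PAS knockout 2 and 159 CPM in PAS control 3, against 47.8 to 105 CPM in the other 13 libraries. Thbs2, a matrix glycoprotein, was at 29.1 and 33.8 CPM against 6.9 to 15.6 CPM.

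Hemgn, a nuclear protein of red-cell precursors, had the widest range of the tested erythroid markers, 14.6-fold. It was at 3.98 CPM in PAS knockout 2 and 2.02 CPM in PAS control 3, below the 7.46 to 29.4 CPM of the other 13 libraries. Klf1 (1.92 and 2.28 CPM against 2.62 to 7.35 CPM) and Gata1 (1.1 and 0.657 CPM against 1.39 to 3.17 CPM) were also below the other 13 in both, while Ermap was inside their range in both (13.7 and 9.42 CPM against 6.99 to 25.3 CPM).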
